A study of Homo sapiens with 6 samples.

Results

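The genes described here are those for Wnt ligands, for the Frizzled family and other Wnt receptors, and for the secreted and membrane proteins that tune them. They were taken by gene symbol from the protein-coding genes of the deposited table, without use of any measured value. Of 58735 genes in the table, 54 met that rule. They are 19 ligand genes, 2 genes for ligand release, 10 Frizzled genes, the LRP5 and LRP6 co-receptors, 3 other receptors, 4 R-spondins, 3 LGR receptors, 4 Dickkopf genes, 2 Kremen genes, 4 SFRP genes and WIF1. The measurements come from 6 RNA sequencing libraries labelled as SW480, a human colorectal adenocarcinoma line with a truncated APC gene. The group labelled DDX39B overexpression and the group labelled control, with a wild-type genotype, have 3 libraries each. All were grown at 37 °C in L-15 medium with 10% fetal bovine serum and without added CO2. The sources used here do not give the vector, the time after its introduction or whether cultures were separate, so p-values measure the spread between these libraries, which may be technical.

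Wnt proteins are secreted, lipid-modified ligands. Together with a Frizzled receptor and LRP5 or LRP6 they keep beta-catenin from being destroyed by the APC and AXIN complex, and with ROR or RYK receptors they steer cell polarity and movement. R-spondins bound to LGR receptors keep Frizzled proteins on the cell surface by holding off the ligases RNF43 and ZNRF3, whereas Dickkopf, SFRP and WIF1 proteins damp the signal outside the cell. In the colon this circuit sustains the crypt stem cells, and most colorectal tumours activate its beta-catenin branch inside the cell, downstream of the receptors.

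Expression was deposited as FPKM, read counts divided by gene length and scaled to library size, so levels can be set side by side between genes. The reads that can be worked out from the table summed to 16980763 to 17170008 in overexpression-label and 16963075 to 17463697 in control-label libraries. DDX39B went against the labels, with 15.02, 13.9 and 14.03 FPKM in the overexpression-label libraries and 39.3, 34.6 and 41.9 FPKM in the control-label ones, so groups are named by their labels and every direction is drawn from the labels as given. The groups were far apart, with Pearson correlations across genes of 0.676 to 0.685 between them. The chi-square per gene between libraries of a group was 2.32 to 2.77 under the overexpression label and 8.78 to 41.2 under the control label, so the control-label libraries differed more from each other. Of 13 markers of colon epithelium, 10 were under 1 FPKM in the control-label libraries and 6 in the overexpression-label ones. The 7 that were tested were all higher under the overexpression label, beside 37.5% of all genes tested. Of these 7, 4 reached the mean of 1 FPKM needed for the test through the overexpression-label libraries alone, so those 4 had to be higher there. The list summed to 1972 to 1996 FPKM in the overexpression-label and 358 to 430.3 FPKM in the control-label libraries. Nearly all of the control-label sum was KRT8 and KRT18, with means of 179 and 202 FPKM there, and EPCAM averaged 2.72 FPKM. CDX2, a defining factor of intestinal cells, had no reads in the control-label libraries, and CDX1 had none in any library. KRT20, an untested marker of that list, ran the other way, with 6 reads under the overexpression label and 80 under the control label. Sums over 9 fibroblast markers were 1.54 to 1.67 FPKM in overexpression-label and 4.42 to 8.30 FPKM in control-label libraries, with PDGFRA at 0 in all 6. Sums over 7 endothelial markers were 1.06 to 1.48 FPKM in overexpression-label and 36.2 to 50.7 FPKM in control-label libraries, most of it ESAM, with KDR at 0 in all 6. VWF of that list had 326 reads under the overexpression label and 24 under the control label, and LUM of the fibroblast list had 29 reads under the overexpression label and 1 under the control label, both opposite to the sums. Sums over 9 leukocyte markers were 1.27 to 2.03 FPKM in overexpression-label and 0.159 to 0.714 FPKM in control-label libraries, with CD3D and MS4A1 at 0 in all 6. The part that any of these differences has in the results below was not tested. In bulk RNA, fewer cells of a type and less RNA per cell cannot be told apart.

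Most of the ligand, receptor and modulator genes that could be tested differed between the groups, as did most other genes. With log2(FPKM + 1) values tested by limma, and p-values given a Benjamini-Hochberg adjustment over the 13972 genes that averaged 1 FPKM or more, 76.8% of all genes passed an adjusted p of 0.05, 37.5% as higher and 39.3% as lower under the overexpression label. Of the 54 genes, 31 reached that mean. Of these 31, 14 were higher, 13 were lower and 4 did not pass, so 87.1% were called. Their median log2 fold change was 0.10, beside -0.03 over all genes tested, and RSPO3, the tested gene with no reads in a group, left that median at 0.10 when set at its bound. The libraries of the groups did not overlap for 27 of the 31, beside 80.1% of all genes tested. Of the 31, 6 reached the mean through the overexpression-label libraries alone and 4 through the control-label ones alone, so those 10 had to differ. Of the 23 genes that were not tested, 11 had at most 3 reads in each group.

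The total level of the 54 genes was close in the groups, while the genes that made it up were not the same. Summed over all 54, the level was 321, 324 and 326 FPKM in the overexpression-label libraries and 309.6, 315 and 283 FPKM in the control-label libraries. WNT6 was the most abundant of them in the overexpression-label libraries, at 94.3 ± 1.41 FPKM, followed by LRP5, SFRP5, FZD7 and WNT5A. WNT10B was the most abundant in the control-label libraries, at 74.6 ± 12.5 FPKM, followed by LRP5, LGR4, WLS and FZD10 (SD, n = 3 each, as for every value given with ± below). LRP5, WNT5A, WLS, FZD2, FZD6 and RYK were among the 12 most abundant in both groups.

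A different Wnt ligand gene dominated each group. WNT6, a ligand gene expressed in epithelia, measured 93.2, 93.7 and 95.9 FPKM in the overexpression-label libraries, against 0.865, 0.661 and 0.983 FPKM in the control-label libraries. It was thus high in all 3 overexpression-label libraries and low in all 3 others, and the means differed 113-fold (log2 fold change 5.70, SE 0.075, limma adjusted p = 1.73e-08). WNT10B, a ligand of the beta-catenin branch, ran the other way with 1.21, 0.779 and 0.788 FPKM under the overexpression label, against 82.1, 81.5 and 60.1 FPKM under the control label. Its mean was 80.6-fold lower (log2 fold change -5.29, SE 0.15, adjusted p = 2.65e-07), and the third control-label library was the lowest of its group. WNT6 made up 65.0% to 65.7% of the summed ligand FPKM in overexpression-label libraries and 0.616% to 1.19% in control-label ones. WNT10B made up 0.539% to 0.851% of it in overexpression-label libraries and 72.9% to 78.9% in control-label ones. With both genes left out, the other 17 ligand genes summed to 47.5 to 49.6 FPKM in overexpression-label libraries and 21.1 to 25.2 FPKM in control-label ones.

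**Figure D1:**
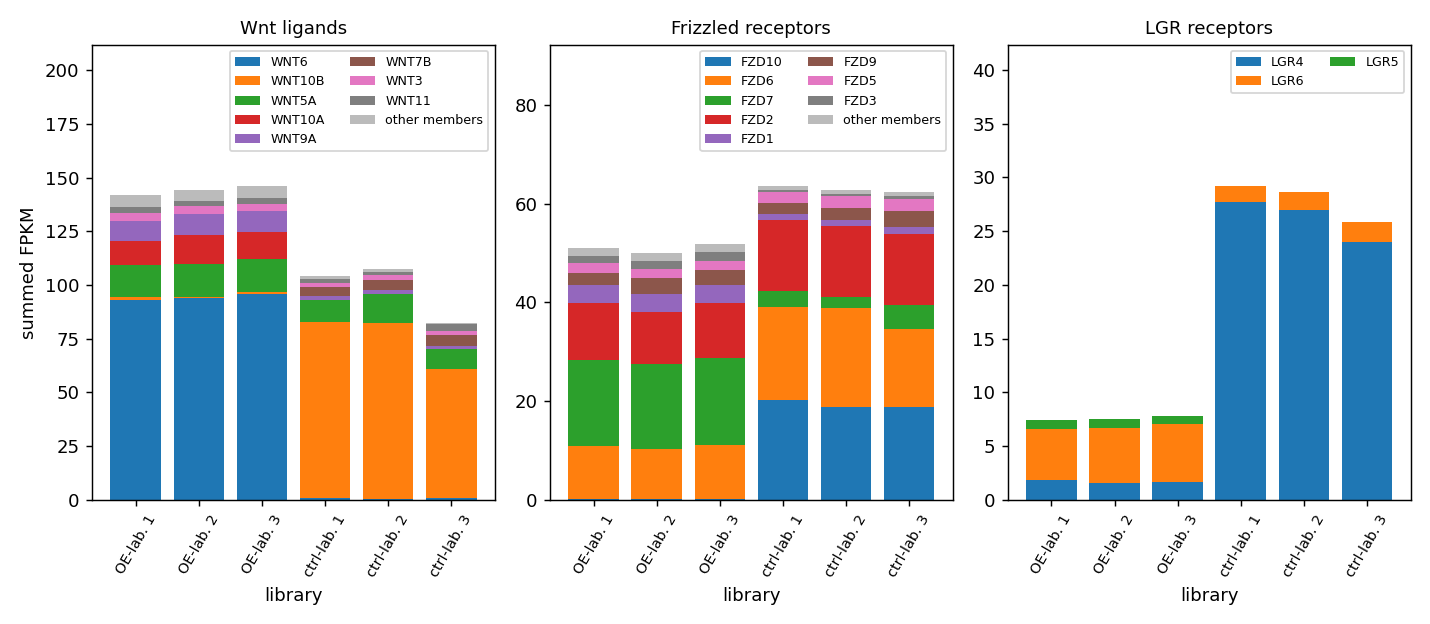
Summed FPKM of the Wnt ligand, Frizzled and LGR genes (vertical axis, linear) in each library, with overexpression-label libraries (OE-lab.) left of control-label ones (ctrl-lab.) and one colour per gene. WNT6 fills most of the ligand bar in the 3 overexpression-label libraries and WNT10B in the 3 control-label ones, FZD10 and LGR4 are prominent under the control label, and FZD7 and LGR6 under the overexpression label.

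Of 8 tested ligand genes, 5 were higher, 2 were lower and 1 did not pass, so 87.5% were called, beside 76.8% of all genes tested. WNT6 and WNT10A passed the filter through the overexpression-label libraries alone, and WNT10B and WNT7B through the control-label ones alone, so these had to differ. WNT10A, the close paralogue of WNT10B and a ligand needed for teeth, hair and skin, measured 11.2, 13.5 and 12.4 FPKM in overexpression-label libraries, against 0.054, 0.017 and 0.088 FPKM in control-label ones. Its reads numbered 2258 under the overexpression label against 9 under the control label, a 233-fold difference (log2 fold change 3.66, SE 0.083, adjusted p = 1.16e-07), so the paralogues moved in opposite directions. WNT9A, a ligand known from joint formation in mouse, measured 9.15, 9.48 and 9.56 FPKM under the overexpression label, against 1.99, 1.72 and 1.70 FPKM under the control label, and was 5.21-fold higher (adjusted p = 6.88e-07). WNT3, the Wnt that Paneth cells make for intestinal stem cells in mouse, measured 3.46 ± 0.23 FPKM under the overexpression label and 1.83 ± 0.37 FPKM under the control label, and was 1.89-fold higher (adjusted p = 0.00113). All 3 were higher in every overexpression-label library than in any control-label one. WNT7B, an epithelial ligand, measured 0.359, 0.285 and 0.366 FPKM under the overexpression label, against 4.24, 4.69 and 5.10 FPKM under the control label, a 13.9-fold lower level (log2 fold change -2.08, SE 0.083, adjusted p = 1.26e-06).

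WNT5A and WNT11 were expressed in all libraries of both groups. WNT5A, the best known ligand of the beta-catenin-independent branch, was the second most abundant ligand gene in both groups, at 14.9, 15.5 and 15.6 FPKM in overexpression-label libraries and 9.94, 13.8 and 8.92 FPKM in control-label ones. The groups did not overlap, and WNT5A was 1.41-fold higher (log2 fold change 0.48, SE 0.14, adjusted p = 0.0192). That call did not hold when 1 library was left out for 3 of the 6 libraries, the second and the third overexpression-label and the first control-label, with adjusted p-values of 0.0592, 0.059 and 0.0661. WNT5A-AS1, an antisense gene that overlaps it, had 246 reads in overexpression-label and 35 in control-label libraries, and without known strand the reads of the pair cannot be told apart. WNT11, which acts in cell movement, measured 2.67, 2.67 and 2.49 FPKM in overexpression-label libraries and 2.12, 1.28 and 3.26 FPKM in control-label ones. The groups overlapped and WNT11 did not pass (log2 fold change 0.21, 95% interval -0.30 to 0.72, adjusted p = 0.391). Without the third control-label library it was 0.44 with an adjusted p of 0.0286.

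Among the 11 ligand genes too low for the test, several had reads almost only under the overexpression label. WNT7A, the paralogue of WNT7B, measured 1.56, 1.63 and 1.86 FPKM in overexpression-label libraries, from 413 reads, and had none in the control-label ones, which with 3 reads over the group as a floor makes it at least 128-fold higher. WNT5B, the paralogue of WNT5A, had 280 reads under the overexpression label and 3, all in 1 library, under the control label (ratio 85.2, 95% counting interval 28.9 to 416). WNT5B overlaps the gene FBXL14 on the other strand. WNT8B had 67 reads under the overexpression label and 1 under the control label (ratio 63.0, 95% counting interval 10.9 to 2524). Like WNT7A, these genes were read in all 3 overexpression-label libraries. WNT16 measured 1.72, 1.14 and 1.51 FPKM under the overexpression label and 0.226, 0.218 and 0.165 FPKM under the control label. WNT2B, which mesenchymal cells of the gut make, was the one low ligand gene with its groups apart in the other direction, at 0.077 ± 0.016 FPKM under the overexpression label and 0.43 ± 0.077 FPKM under the control label, and it overlaps the gene ST7L on the other strand. WNT1, WNT4 and WNT3A stayed under 0.71 FPKM in every library, WNT2 had 1 read and WNT9B 3 reads in all, and WNT8A had none. Counting intervals and floors cover counting error only.

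Without the filter on low values, 44.5% of all 33913 genes passed, 24.0% as higher and 20.5% as lower. Of the 54 genes, 50 entered that fit, with 22 higher and 14 lower, as 4 had no reads in any library. Those 4 were among the 23 genes untested in the main comparison, of which 8 were then higher and 1, WNT2B, was lower. The 8 were WNT5B, WNT7A, WNT8B, WNT16, FZD4, FZD8, LGR5 and SFRP4.

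**Figure D2:**
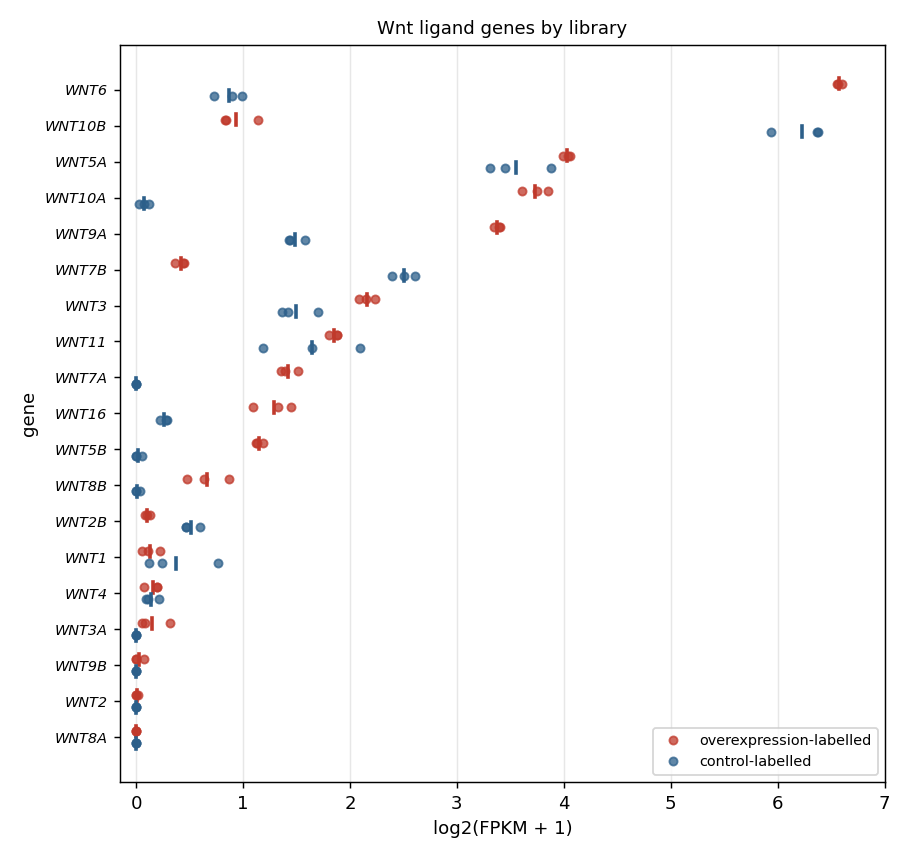
Level of each of the 19 Wnt ligand genes on a log2(FPKM + 1) axis, with one point per library and a bar at the mean of 3 libraries, overexpression-label above control-label in each row. WNT6, WNT10A and WNT9A stand to the right under the overexpression label and WNT10B and WNT7B under the control label, while the points of WNT11 overlap.

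Of the 19 ligand genes, 8 lie in pairs on a chromosome, and in 1 pair both genes were tested. WNT6 (chromosome 2, 218859821 to 218874233) and WNT10A (chromosome 2, 218880363 to 218899581) are on the plus strand of GRCh38, 6129 bases apart with no gene between them in the table, and both were higher. WNT10B (chromosome 12, 48965340 to 48971763, minus strand) and WNT1 (chromosome 12, 48978453 to 48981676, plus strand) are 6689 bases apart with 1 gene between them and point away from each other. WNT10B was the leading ligand gene under the control label, but its neighbour WNT1 had 2, 1 and 4 reads in overexpression-label and 4, 16 and 2 reads in control-label libraries, so those groups overlapped. WNT3 and WNT9B on chromosome 17 have bounds 46 bases apart with no gene between them, and while WNT3 was higher, WNT9B had 3 reads in the overexpression-label libraries and 0 in the control-label ones. WNT9A and WNT3A on chromosome 1 are 59152 bases apart with 2 genes between them. WNT9A was higher, and WNT3A had 3, 13 and 2 reads under the overexpression label, most of them in the second library, and none under the control label. Without the filter on low values WNT3A did not pass (adjusted p = 0.155).

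Promoter windows are shown for the neighbouring pair that rose together, for the secreted inhibitor with the largest rise and for the R-spondin and LGR genes that were lower. RefSeq windows of GRCh38.p14 hold 250 bases before and 50 bases after a gene start, and 37 of the 54 genes were matched by symbol, with 44 windows. The windows printed 5′ to 3′ on the gene's strand are WNT6 at chr2:218859555-218859854 (plus), WNT10A at chr2:218880602-218880901 (plus), SFRP5 at chr10:97771950-97772249 (minus), LGR4 at chr11:27472741-27473040 (minus) and RSPO3 at chr6:127118421-127118720 (plus). The WNT10A window lies inside that gene as the table bounds it, at a later RefSeq start. Capitals mark the GC box letters GGGCGG, read on either strand.
WNT6: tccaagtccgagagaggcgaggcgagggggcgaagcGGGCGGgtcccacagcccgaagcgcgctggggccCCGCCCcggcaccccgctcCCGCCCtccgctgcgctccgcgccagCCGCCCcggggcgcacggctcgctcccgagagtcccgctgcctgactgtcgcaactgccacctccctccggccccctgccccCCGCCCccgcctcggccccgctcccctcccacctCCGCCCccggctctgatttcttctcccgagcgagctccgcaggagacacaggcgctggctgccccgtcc
WNT10A: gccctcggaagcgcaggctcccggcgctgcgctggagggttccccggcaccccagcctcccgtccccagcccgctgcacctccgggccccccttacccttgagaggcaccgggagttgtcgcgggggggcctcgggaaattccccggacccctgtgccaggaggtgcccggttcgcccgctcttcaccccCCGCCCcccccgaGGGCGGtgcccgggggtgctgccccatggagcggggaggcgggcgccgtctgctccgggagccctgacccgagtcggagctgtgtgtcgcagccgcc
SFRP5: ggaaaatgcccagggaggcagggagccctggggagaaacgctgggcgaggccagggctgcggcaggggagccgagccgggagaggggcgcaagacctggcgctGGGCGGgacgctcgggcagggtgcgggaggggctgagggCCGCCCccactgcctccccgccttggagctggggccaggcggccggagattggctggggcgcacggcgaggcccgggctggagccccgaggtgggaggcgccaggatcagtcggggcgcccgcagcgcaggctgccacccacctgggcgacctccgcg
LGR4: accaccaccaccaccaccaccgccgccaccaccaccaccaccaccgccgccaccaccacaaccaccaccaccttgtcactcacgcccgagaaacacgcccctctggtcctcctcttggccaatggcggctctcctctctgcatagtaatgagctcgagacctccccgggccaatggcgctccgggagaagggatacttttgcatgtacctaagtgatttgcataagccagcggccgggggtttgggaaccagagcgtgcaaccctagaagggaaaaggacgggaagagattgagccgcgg
RSPO3: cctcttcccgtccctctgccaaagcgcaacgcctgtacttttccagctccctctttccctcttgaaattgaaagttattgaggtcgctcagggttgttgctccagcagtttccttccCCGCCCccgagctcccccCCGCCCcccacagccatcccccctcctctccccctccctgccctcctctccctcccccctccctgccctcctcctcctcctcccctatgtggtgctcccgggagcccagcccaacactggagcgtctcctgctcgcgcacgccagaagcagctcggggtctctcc
The WNT6 window held 6 GC boxes, those of WNT10A, SFRP5 and RSPO3 held 2 each, and that of LGR4 held none but 2 CCAAT boxes. GGGCGG was found in 30 of the 44 windows (68.2%) and in 45.0% of all 35116 windows of the same length. CCAAT was found in 40.9% of the 44 and in 34.6% of all windows. The core CTTTGA, which TCF and LEF factors bind, was found in 2 of the 44, those of DKK1 and PORCN (4.55%, against 12.9% of all windows), and TATAAA in 3, those of DKK1, FZD8 and WNT5B (6.82%, against 11.5%). All 4 motifs were searched on both strands and none of them contains another. Median GC content was 68.0% in the 44 windows and 58.7% in all windows, and none of this was set against the expression values.

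Both genes for making an active ligand were expressed in all libraries and moved in opposite directions. PORCN, the enzyme that attaches the lipid to Wnt proteins, measured 7.51, 9.30 and 8.96 FPKM under the overexpression label and 5.44, 5.00 and 5.26 FPKM under the control label, and was 1.64-fold higher (adjusted p = 0.000538). WLS, the carrier that takes Wnt proteins to the cell surface, measured 13.1, 12.2 and 12.4 FPKM under the overexpression label, against 19.8, 18.0 and 21.1 FPKM under the control label, and was 1.56-fold lower (adjusted p = 0.000207). Neither gene's groups overlapped.

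Frizzled genes, which encode the receptors that bind Wnt ligands directly, were 3 higher, 4 lower and 1 not past the threshold among 8 tested of 10. Thus 87.5% of those tested were called, beside 76.8% of all genes tested. FZD3 passed the filter through the overexpression-label libraries alone and FZD10 through the control-label ones alone, so both had to differ. FZD10 measured 0.121, 0.186 and 0.102 FPKM in overexpression-label libraries, against 20.2, 18.9 and 18.8 FPKM in control-label ones. It was the most abundant Frizzled gene on average under the control label and had 24 reads in all 3 overexpression-label libraries together, a 141-fold lower level (log2 fold change -4.16, SE 0.064, adjusted p = 2.82e-08). FZD7, a receptor of intestinal stem cells in mouse, led the overexpression-label libraries with 17.4, 17.2 and 17.5 FPKM, against 3.10, 2.26 and 4.92 FPKM in the control-label ones. It was 5.08-fold higher (log2 fold change 2.10, SE 0.20, adjusted p = 8.7e-05), with a wide spread among the control-label libraries that did not reach the others.

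The remaining Frizzled genes changed by smaller factors. FZD1 was 2.66-fold higher, at 3.59, 3.51 and 3.59 FPKM under the overexpression label and 1.21, 1.28 and 1.52 FPKM under the control label (adjusted p = 2.87e-05). FZD3, a receptor of the planar polarity branch, was 3.36-fold higher, at 1.58 ± 0.14 FPKM under the overexpression label and 0.47 ± 0.085 FPKM under the control label (adjusted p = 0.000161). FZD6, also of that branch, was 1.70-fold lower, at 10.9, 10.1 and 11.04 FPKM under the overexpression label and 18.9, 19.9 and 15.8 FPKM under the control label (adjusted p = 0.000376). In each of these 3 the groups did not overlap. FZD2 was 1.29-fold lower, at 11.2 ± 0.50 FPKM under the overexpression label and 14.4 ± 0.083 FPKM under the control label (adjusted p = 0.000932). FZD5 was 1.26-fold lower, at 1.90 ± 0.17 FPKM under the overexpression label and 2.39 ± 0.081 FPKM under the control label (adjusted p = 0.0259). The FZD5 call was lost when FPKM used the read sum as denominator (adjusted p = 0.0936), with the replicate number as a block (0.0675), and without the second or the third overexpression-label or the second control-label library (0.0829, 0.0554 and 0.0546). FZD9 did not pass, at 2.91 ± 0.49 FPKM under the overexpression label and 2.65 ± 0.49 FPKM under the control label (log2 fold change 0.10, 95% interval -0.22 to 0.42). FZD4 averaged 0.645 FPKM under the overexpression label and 0.357 FPKM under the control label. FZD8 averaged 1.04 FPKM under the overexpression label and 0.403 FPKM under the control label, and neither was tested in the main comparison. FZD4 overlaps PRSS23, which had 1704 reads under the overexpression label and 13867 under the control label.

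Summed over the 10 genes, Frizzled levels were 51.1, 49.99 and 51.9 FPKM in overexpression-label libraries and 63.6, 62.7 and 62.4 FPKM in control-label ones. FZD7, FZD2 and FZD6 led under the overexpression label, where the ranges of FZD2 and FZD6 overlapped. FZD10, FZD6 and FZD2 led under the control label, where the ranges of FZD10 and FZD6 overlapped. Without FZD7 and FZD10 the sums were 32.6 to 34.3 FPKM in overexpression-label and 38.7 to 41.6 FPKM in control-label libraries.

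The paired co-receptors LRP5 and LRP6, which form the signalling complex with Frizzled, parted. LRP5 measured 28.8, 29.04 and 28.4 FPKM in overexpression-label libraries and 28.9, 31.9 and 27.3 FPKM in control-label ones, from 9485 reads in overexpression-label and 9035 in control-label libraries. Its groups overlapped and its log2 fold change was -0.03, with a 95% interval of -0.18 to 0.13 (adjusted p = 0.714). The sign of that value turned under 4 other scalings or models, between 0.014 and 0.11. LRP6 measured 5.28, 5.39 and 5.12 FPKM under the overexpression label, against 11.7, 11.2 and 11.97 FPKM under the control label, a 2.21-fold lower level (log2 fold change -1.01, SE 0.054, adjusted p = 4.79e-06).

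The receptors that work outside the beta-catenin branch were all tested. ROR2, a receptor kinase for WNT5A, measured 3.40, 4.02 and 4.01 FPKM in overexpression-label libraries, against 12.4, 12.4 and 9.21 FPKM in control-label ones, and was 2.98-fold lower (adjusted p = 6.61e-05). ROR1, its paralogue, was 2.94-fold higher, at 1.89, 1.63 and 1.66 FPKM under the overexpression label and 0.576, 0.476 and 0.712 FPKM under the control label (adjusted p = 0.000231). ROR1 passed the filter through the overexpression-label libraries alone, so it had to be higher there. The paralogues moved in opposite directions, and ROR2 had the higher mean FPKM of the pair in both groups. RYK, a Wnt receptor related to kinases, was 1.66-fold lower, at 9.41, 9.29 and 9.27 FPKM under the overexpression label and 15.5, 14.1 and 16.9 FPKM under the control label (adjusted p = 0.000141).

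R-spondins were close to unread but for RSPO3. RSPO3, an R-spondin supplied to crypts by the gut mesenchyme, had no reads in the overexpression-label libraries, against 129, 151 and 153 reads in the control-label ones, or 2.49, 2.81 and 2.88 FPKM. It was at least 155-fold lower (log2 fold change on the FPKM + 1 scale -1.90, SE 0.081, adjusted p = 1.69e-06). RSPO3 passed the filter through the control-label libraries alone, so it had to be lower under the overexpression label. RSPO1 and RSPO4 had 2 reads each, all under the overexpression label, and RSPO2 had none.

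The LGR genes, which encode the R-spondin receptors, exchanged their order between groups. LGR4, the widely expressed member, measured 1.89, 1.61 and 1.70 FPKM in overexpression-label libraries, against 27.7, 27.02 and 24.0 FPKM in control-label ones, a 15.2-fold lower level (log2 fold change -3.32, SE 0.076, adjusted p = 1.19e-07). LGR6, known from skin stem cells in mouse, measured 4.75, 5.12 and 5.35 FPKM under the overexpression label, against 1.46, 1.59 and 1.84 FPKM under the control label, and was 3.11-fold higher (log2 fold change 1.21, SE 0.08, adjusted p = 1.36e-05). LGR5, the marker of intestinal stem cells, was low, at 0.799, 0.801 and 0.789 FPKM under the overexpression label and 0.047, 0.045 and 0.046 FPKM under the control label. Its 224 reads under the overexpression label and 12 under the control label gave a ratio of 17.4 between mean levels, and it was not tested in the main comparison because its mean was under 1 FPKM. LGR5 overlaps TSPAN8 on the other strand, which had 128 reads under the overexpression label and 199 under the control label. LGR4 made up 21.3% to 25.4% of the summed LGR level in overexpression-label libraries and 92.7% to 94.8% in control-label ones. Only the control-label libraries thus held reads of RSPO3, and they were the ones in which LGR4 was high.

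**Figure D3:**
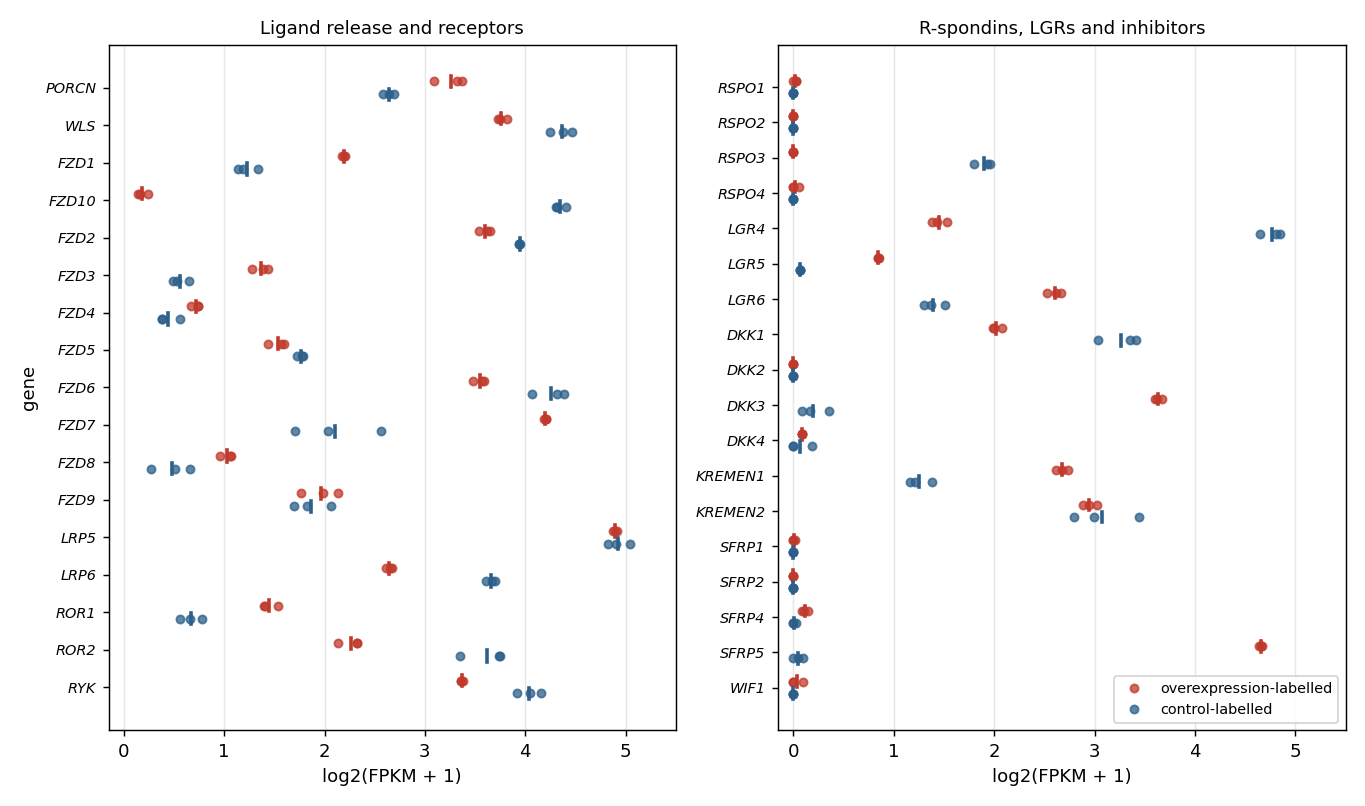
Level of each receptor and modulator gene on a log2(FPKM + 1) axis, with one point per library and a bar at the mean of 3 libraries, overexpression-label above control-label in each row. FZD10 and LGR4 lie far to the right under the control label only, SFRP5 and DKK3 under the overexpression label only, and the points of LRP5, FZD9 and KREMEN2 overlap. RSPO3 lies above 0 under the control label only.

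Of the secreted inhibitors, 1 SFRP gene and 2 Dickkopf genes were expressed enough to be tested. SFRP5, which binds Wnt ligands and is often silenced in colorectal tumours, measured 24.5, 24.3 and 23.96 FPKM in overexpression-label libraries, against 0.033, 0 and 0.065 FPKM in control-label ones. It had 2385 reads under the overexpression label and 3 under the control label, a ratio of 739 with a 95% counting interval of 252 to 3584 (log2 fold change 4.61, SE 0.057, adjusted p = 1.43e-08). Without the third control-label library, which held 2 of those 3 reads, the ratio was 1452. SFRP5 passed the filter through the overexpression-label libraries alone, so it had to be higher there. SFRP4 had 16 reads under the overexpression label and 1 under the control label and overlaps EPDR1, SFRP1 had 1 read and SFRP2 none in the 6 libraries, and WIF1 had 3 reads in 1 overexpression-label library.

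DKK3 and DKK1 moved in opposite directions. DKK3, a divergent family member whose action on Wnt signalling is unsettled, measured 11.1, 11.8 and 11.3 FPKM in overexpression-label libraries, against 0.279, 0.059 and 0.118 FPKM in control-label ones, and was 75.1-fold higher (log2 fold change 3.43, SE 0.087, adjusted p = 1.77e-07). Without the first control-label library, the highest of its group, the fold was 129. DKK3 passed the filter through the overexpression-label libraries alone, so it had to be higher there. DKK1, which blocks LRP5 and LRP6, measured 3.21, 2.99 and 2.97 FPKM under the overexpression label, against 7.17, 9.24 and 9.67 FPKM under the control label, and was 2.85-fold lower (adjusted p = 5.1e-05). DKK2 had no reads and DKK4 5 reads in all. The Kremen genes encode receptors that help DKK1 remove LRP6 from the surface. KREMEN1 was 3.89-fold higher, at 5.66, 5.14 and 5.38 FPKM under the overexpression label and 1.32, 1.60 and 1.24 FPKM under the control label (adjusted p = 6.54e-06). KREMEN2 did not pass, at 6.68, 7.12 and 6.38 FPKM under the overexpression label and 6.97, 9.84 and 5.94 FPKM under the control label (log2 fold change -0.13, 95% interval -0.51 to 0.26), and it overlaps PKMYT1 on the other strand.

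**Figure D4:**
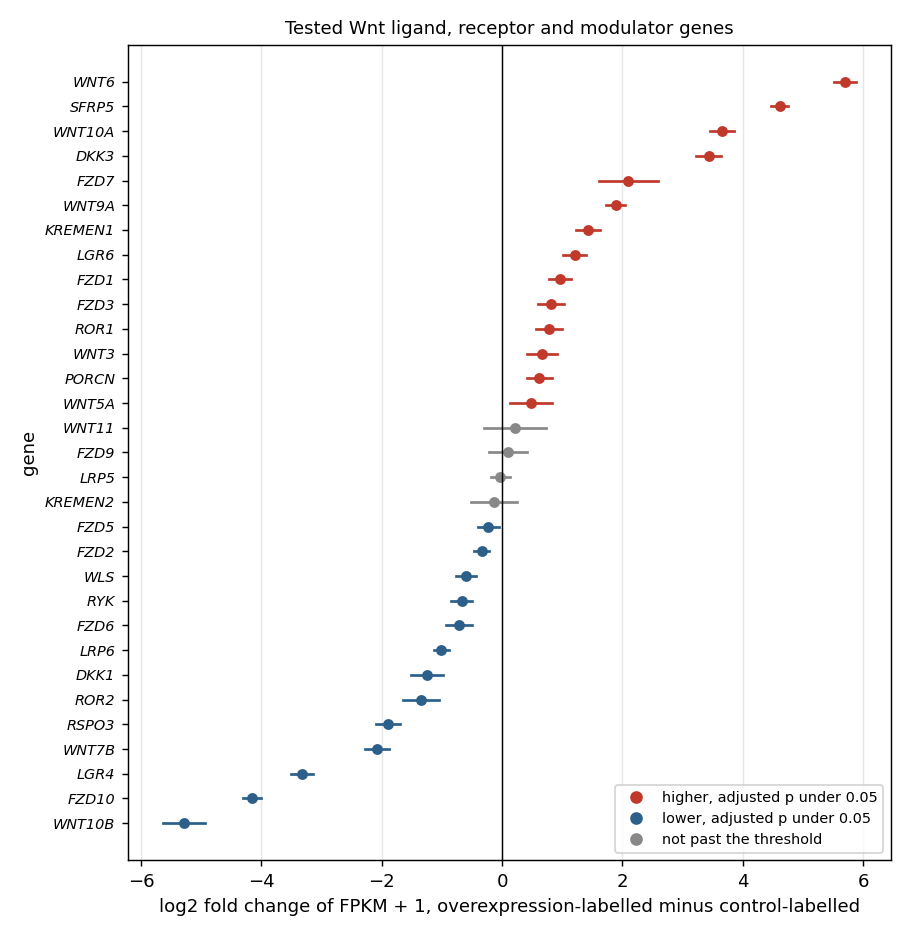
Log2 fold change on the FPKM + 1 scale, overexpression-label minus control-label, with 95% limma intervals for the 31 tested genes, in order of size. WNT6, SFRP5, WNT10A and DKK3 form the upper end, WNT10B, FZD10 and LGR4 the lower end, and the intervals of WNT11, FZD9, LRP5 and KREMEN2 cross 0.

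Other genes of the pathway were counted from lists that do not depend on the rule. Among 27 other surface and secreted Wnt regulators, 16 were tested, of which 10 were higher, 5 were lower and 1 did not pass, with a median log2 fold change of 1.48. Over all genes tested, 37.5% were higher and 39.3% lower, with a median of -0.03. Of the 16, 4 passed the filter through the overexpression-label libraries alone and 3 through the control-label ones alone, so those had to differ. RNF43, one of the ligases that R-spondin and LGR proteins hold off, measured 8.05, 7.73 and 7.92 FPKM in overexpression-label libraries, against 0.057, 0.087 and 0.040 FPKM in control-label ones, and was 129-fold higher (adjusted p = 8.35e-08). ZNRF3, the other ligase, was 6.06-fold higher, at 20.2 ± 0.31 FPKM under the overexpression label and 3.33 ± 0.23 FPKM under the control label (adjusted p = 1.86e-07). Both ligase genes were thus higher in the libraries with low LGR4 and no RSPO3. NOTUM, the enzyme that strips the lipid from Wnt proteins, was 4.22-fold higher, at 46.8 ± 0.57 FPKM under the overexpression label and 11.1 ± 1.08 FPKM under the control label (adjusted p = 8.69e-07). The largest fold change of that list was that of APCDD1, a membrane inhibitor of Wnt signalling, at 174 ± 3.63 FPKM under the overexpression label and 0.037 ± 0.015 FPKM under the control label (adjusted p = 4.87e-09). GPC4, a glypican of the cell surface, had 1765 reads under the overexpression label and none under the control label, and was at least 548-fold higher. SULF2, which edits heparan sulphate, was 10.01-fold higher, at 17.7 ± 0.91 FPKM under the overexpression label and 1.77 ± 0.17 FPKM under the control label (adjusted p = 1.94e-07). The 5 lower genes were TRABD2B, TRABD2A, ADGRA2, TSPAN12 and RECK, named after their values were seen. TRABD2B and TRABD2A encode proteases that inactivate Wnt proteins. TRABD2B was 21.8-fold lower, at 0.356 ± 0.062 FPKM under the overexpression label and 7.77 ± 1.94 FPKM under the control label (adjusted p = 1.06e-05). TRABD2A was 9.10-fold lower, at 1.85 ± 0.084 FPKM under the overexpression label and 16.9 ± 1.43 FPKM under the control label (adjusted p = 2.85e-07). ADGRA2 and RECK, partners in the reception of WNT7A and WNT7B, were 9.01-fold and 1.92-fold lower, and TSPAN12, a partner of the receptor FZD4, was 4.87-fold lower. FRZB, a relative of the SFRP genes, had no more than 0.054 FPKM in any library.

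Of 12 planar polarity genes 7 were tested, and 1 was higher, 2 were lower and 4 did not pass, with a median of -0.03. Thus 42.9% of those tested were called, beside 76.8% of all genes tested. The 5 untested genes, named after their values were seen, were low. VANGL2 had 296 reads under the overexpression label and 1 under the control label, PRICKLE1 had 73 and 14, and PRICKLE2 had 55 and 7. DAAM2 had 3 reads under the overexpression label and 0 under the control label. FUZ had 58 and 47, with its groups overlapping. VANGL1, a core membrane protein of that system, was 2.68-fold higher, at 7.31 ± 0.22 FPKM under the overexpression label and 2.73 ± 0.37 FPKM under the control label (adjusted p = 2.34e-05). CELSR3, an adhesion receptor, was 1.18-fold lower (adjusted p = 0.0103), a call lost with FPKM on the sum of reads (0.0747). SCRIB, a scaffold protein, was 1.21-fold lower (adjusted p = 0.0239). That call was lost with median-ratio scaling, FPKM on the sum of reads and quantile normalization (0.0508, 0.162 and 0.191), and without the first or second overexpression-label or the first control-label library (0.086, 0.0505 and 0.0614). All 20 genes of the beta-catenin relay inside the cell were tested, and 11 were higher, 8 were lower and 1 did not pass, with a median of 0.30. Thus 95% were called, beside the same 76.8%. Of the 20, 2 passed the filter through the overexpression-label libraries alone and 1 through the control-label ones alone, so those had to differ. CTNNB1, the beta-catenin gene, was 3.74-fold higher, at 79.4, 77.0 and 76.8 FPKM under the overexpression label and 20.7, 19.2 and 22.5 FPKM under the control label (adjusted p = 7.25e-07). AXIN2, a target and brake of that branch, was 48.0-fold higher, at 104 ± 2.17 FPKM under the overexpression label and 2.17 ± 0.70 FPKM under the control label (adjusted p = 3.67e-07). TCF7, a factor that acts with beta-catenin, was 13.7-fold higher. PYGO1, a coactivator, was 163-fold lower, with 12 reads under the overexpression label and 1827 under the control label.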

How the data were processed

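RNA sequencing of 6 libraries (3 labelled overexpression, 3 control, grouped by title) was deposited by the authors as one table of FPKM per gene, with gene lengths. Per the labels' protocols, libraries were made from 1.3 µg of total RNA with a SMARTer mRNA kit. The submitters' processing notes name the build mm10, a mouse build, but all 54 genes matched human GENCODE 29 (GRCh38) in identifier, coordinates and symbol. The aligner, the counter and the use of strand are not stated in the labels. FPKM times gene length gave whole reads within 0.001 for 100% of values above 0, and the authors' scaling was 1.04 to 1.05 times the read sum in overexpression-label and 0.958 to 0.995 times in control-label libraries.

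Groups were compared by limma 3.58.1 (R 4.3.3), using a variance trend on log2(FPKM + 1), a scale that understates change in low genes, two-sided, over all genes that averaged 1 FPKM or more, with Benjamini-Hochberg adjustment and a threshold of 0.05. For each gene the fit takes a common spread for both groups. The median SD on that scale was 0.059 under the overexpression label and 0.128 under the control label. Folds are ratios of mean FPKM, or bounds against 3 reads over a group with none. With 1 to 3 reads in a group an exact 95% counting interval is given. All 54 genes could be named, and up to 4 genes past the threshold per other list, with FRZB, RNF43, ZNRF3 and NOTUM. The 5 lower genes of the surface and secreted list and the 5 untested planar polarity genes were named outside that rule. The calls of those 5 lower genes were not followed through the alternatives. The members, lists and tests were chosen with earlier results of these data known. The fits were tried on simulated data with few changed genes and an equal spread in both groups. The data here differ in both respects, so that trial does not gauge the calls. The alternatives changed pseudocount, filter, scaling, variance model, replicate pairing and single libraries, and used voom on the reads worked out.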

Additional observations from a re-analysis of the deposited data

How the results depend on the processing

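Of the 31 tested ligand, receptor and modulator genes, 26 kept their direction and their side of the threshold under every alternative run in which they were tested, and 5 (FZD5, KREMEN2, LRP5, WNT5A and WNT11) did not. With no filter on low values 22 of the genes were called higher, and with a mean of at least 5 FPKM 8 were, against 14 in the main comparison, as more or fewer genes were tested. With the stricter filter 6218 of all 7796 genes tested were called. Leaving out 1 library at a time gave 13 to 15 genes higher, 12 or 13 lower, and 9909 to 11099 called over the whole table. LRP5, never past the threshold, turned positive with median-ratio scaling (0.0168), FPKM on the sum of reads (0.0765), quantile normalization (0.11), voom with TMM factors on the reads (0.0141) and without the second control-label library. With 1 library left out at a time LRP5 ranged from -0.0774 to 0.0310, KREMEN2 from -0.268 to 0.0535 and WNT11 from -0.0138 to 0.436, each with its sign turned without the second control-label library. The cause was not tested. Same-numbered libraries did not deviate together (correlations of -0.022 to 0.0075). The overexpression-label libraries differed little from each other, so this cannot settle whether the numbers pair the libraries. With the replicate block 14 genes were higher, 12 lower and 10506 called over the whole table. The scalings tried moved the median of all genes from -0.03 to between -0.04 and 0.06. At this depth 1 read of a 1-kilobase gene gives 0.0554 to 0.0613 FPKM, so differences among genes with at most 3 reads a group were not detectable.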
